A study of Homo sapiens with 6 samples.

Results

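This account describes 10 human genes of the YAP and TEAD pathway in Cal27 cells, out of 57820 gene identifiers counted in 6 libraries. They are CCN1, CCN2, ANKRD1, THBS1, AMOTL2, LATS2, CRIM1, NUAK2, YAP1 and WWTR1. The set was chosen from measured values: CCN1, CCN2, ANKRD1 and THBS1 had been seen high in untreated replicate 1, and pathway genes were added around them. Every level in that library, and every contrast that holds it, is therefore given as a description without a test. CCN1, CCN2 and THBS1 encode matricellular proteins, while the other genes encode intracellular or membrane proteins, so the name of matricellular targets covers 3 of the 10.

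Cal27 is an established human cell line, derived from a tongue squamous cell carcinoma. The tested cells were transduced with a lentivirus carrying cornulin (CRNN), an S100 fused-type protein of squamous epithelium. The controls were Cal27 cells transduced with a GFP vector and untreated Cal27 cells, which the labels call WT, with 2 libraries in each of the 3 groups. Transduced cells received polybrene at 8 µg/ml and were harvested at 48 h, whereas neither is given for the untreated cells, so transduction, polybrene and harvest time cannot be told apart in comparisons with them. The design text calls the replicates biological but the labels do not say that they came from separate cultures, so p-values measure the spread between these samples. All libraries carry batch 1.

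YAP1 and WWTR1 (also called TAZ) are transcriptional coactivators that lack a DNA-binding domain and act mainly through the TEAD factors. The Hippo kinases, ending in LATS1 and LATS2, phosphorylate them and keep them out of the nucleus, while cell spreading, low density and tension of the actin cytoskeleton favour their entry. CCN1 (CYR61), CCN2 (CTGF) and ANKRD1 are the targets most often used to read this activity, and LATS2 and AMOTL2 are targets that feed back on the coactivators. In squamous epithelium and its carcinomas the pathway is known for its part in basal cell growth.

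The promoters are shown because the 4 genes high in untreated replicate 1 are known as TEAD targets, whose factors recognise the motif GGAATG. Windows from 250 bases before to 50 bases after the start site were taken from RefSeq (GRCh38.p14), where 8 of the 10 genes (all but CCN1 and CRIM1) were matched, with 10 windows in all. Capitals mark each GGAATG, on either strand, and each AP-1 motif (TGANTCA) in the 250 bases before the start, written 5′ to 3′ on the strand of the gene: CCN2 at chr6:131951373-131951622 (minus strand), ANKRD1 at chr10:90921088-90921337 (minus strand) and THBS1 at chr15:39580829-39581078 (plus strand).
CCN2: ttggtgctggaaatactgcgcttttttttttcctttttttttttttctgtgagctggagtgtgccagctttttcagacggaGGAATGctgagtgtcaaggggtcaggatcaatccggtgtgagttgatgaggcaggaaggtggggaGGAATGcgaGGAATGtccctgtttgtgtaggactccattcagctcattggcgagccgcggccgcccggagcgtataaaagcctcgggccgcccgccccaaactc
ANKRD1: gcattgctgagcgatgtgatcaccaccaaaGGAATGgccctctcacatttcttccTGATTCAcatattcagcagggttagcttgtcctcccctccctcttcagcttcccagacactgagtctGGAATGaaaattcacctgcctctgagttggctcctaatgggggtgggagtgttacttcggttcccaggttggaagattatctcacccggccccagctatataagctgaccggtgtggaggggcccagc
THBS1: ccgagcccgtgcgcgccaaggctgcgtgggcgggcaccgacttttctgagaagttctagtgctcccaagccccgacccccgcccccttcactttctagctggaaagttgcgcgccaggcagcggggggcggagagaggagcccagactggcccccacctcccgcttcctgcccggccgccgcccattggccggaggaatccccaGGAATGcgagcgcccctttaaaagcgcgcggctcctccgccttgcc

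The CCN2 window held 3 copies of GGAATG, the ANKRD1 window 2 and the THBS1 window 1. Of the others, NUAK2 had 2, LATS2, YAP1 and 1 of the 2 AMOTL2 windows had 1 each, and neither WWTR1 window had any. In total 7 of the 10 windows held the motif, against 14.0% of 35116 promoter windows of the same length, and 3 held it more than once, against 1.37%. The genes were picked as known TEAD targets or pathway members, so this is a description of the set. ANKRD1 also had 1 AP-1 motif, which 7.71% of all windows hold, and no window of the set held a CArG box, the site of serum response factor, which 1.29% of all windows hold. No AP-1 motif overlapped a GGAATG in these windows.

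Library totals ranged from 11817105 counts in GFP replicate 2 to 28041227 in untreated replicate 1, and mitochondrial transcripts took between 22.5% and 29.3% of them. Levels are in CPM, counts scaled to library sizes corrected by the TMM method, and 3 counts corresponded to between 0.114 and 0.239 CPM. The transgene checked the labels: CRNN reached 962 and 1027 CPM after CRNN transduction, against 3.06 and 2.55 CPM after GFP transduction and 3.51 and 2.08 CPM without transduction. Untreated replicate 1 stood apart from the rest, with a score of 67.4 on the leading principal component (51.0% of the variance) and scores of -21.2 to -8.39 elsewhere. All 10 squamous epithelial markers, among them KRT5 and TP63, were counted in every library, with sums between 4848 and 6942 CPM. Fibroblast markers summed to between 3.96 and 9.09 CPM and immune markers to between 0.801 and 1.75 CPM. Endothelial markers summed to 8.10 and 10.3 CPM in CRNN and to 8.04 and 13.9 in GFP, while untreated replicates 1 and 2 had 52.9 and 13.0. CDH5 carried 49.9 CPM of the sum in untreated replicate 1, where KDR had 1 count. VWF had 3.05 CPM there and 0.726 to 1.60 CPM in the other libraries. PECAM1 was not analysed here. The part of these transcripts in the results below was not tested.

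**Figure D1:**
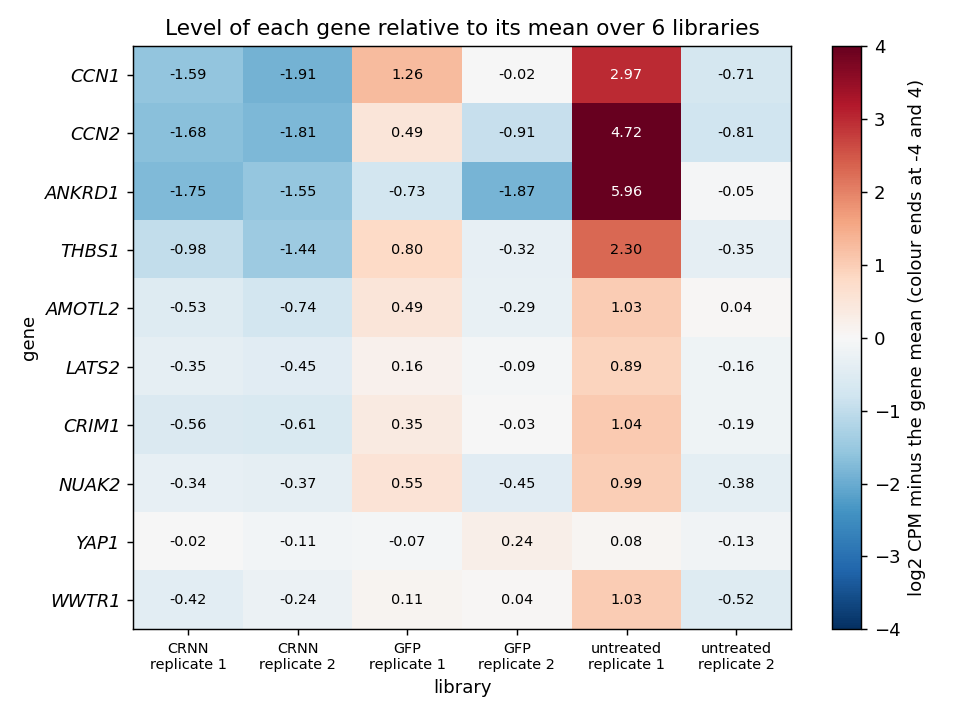
Level of each of the 10 genes (rows) in each library (columns), as log2 CPM minus the mean of that gene over the 6 libraries, with red above and blue below the mean. Untreated replicate 1 reaches 5.96 for ANKRD1 and 4.72 for CCN2, both CRNN libraries are below the mean for every gene, and YAP1 stays between -0.13 and 0.24.

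The genes of the secreted proteins differed in amount but shared their 2 highest libraries, untreated replicate 1 and GFP replicate 1, and their 2 lowest, the CRNN pair. In these bulk samples fewer expressing cells and less RNA per cell cannot be told apart. CCN1, a heparin-binding matricellular protein that signals through integrins (ENSG00000142871.11; GRCh38 chromosome 1, 85580761 to 85584589), had 15.7 and 12.6 CPM with CRNN, 114 and 46.7 in GFP, and 372 and 28.9 in untreated libraries. The CRNN libraries were the lowest of the 6, GFP replicate 1 was 2.44 times GFP replicate 2, and untreated replicate 1 was 12.9 times untreated replicate 2.

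CCN2, its close relative and a driver of matrix deposition in fibrosis (ENSG00000118523.5; chromosome 6, 131948176 to 131951372), had 1.27 and 1.16 CPM in CRNN, 6.07 and 2.23 in GFP, and 115 and 2.40 in untreated libraries. Outside untreated replicate 1 these levels rest on 26 to 117 counts. The CRNN libraries again lay below the other 4, and untreated replicate 1 was 18.9 times the next highest library.

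THBS1, thrombospondin 1, a large matrix glycoprotein that inhibits angiogenesis and activates latent TGF-beta (ENSG00000137801.9; chromosome 15, 39581079 to 39599466), was the most abundant of the set. It had 978 and 709 CPM in CRNN, 3360 and 1542 in GFP, and 9519 and 1517 in untreated libraries. CRNN lay below all other libraries, and untreated replicate 2 was close to GFP replicate 2.

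ANKRD1, a nuclear and sarcomeric ankyrin repeat protein of muscle that is also induced in stretched or spreading cells (ENSG00000148677.6; chromosome 10, 90912096 to 90921087), was near the limit of counting in most libraries. It had 4 and 5 counts in CRNN (0.181 and 0.223 CPM), 9 and 2 counts in GFP (0.467 and 0.159 CPM), and 1509 and 20 counts in untreated libraries (57.6 and 0.800 CPM). The CRNN and GFP libraries overlapped. Untreated replicate 1 had 72.0 times the level of the next highest library, the largest such ratio of the 10 genes.

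The feedback genes had the same highest library over a narrower range. AMOTL2, an angiomotin that binds YAP1 and promotes LATS activity (ENSG00000114019.10; chromosome 3, 134355347 to 134375479), had 134 and 115 CPM in CRNN, 270.1 and 158 in GFP, and 393 and 198 in untreated libraries. LATS2, the kinase that phosphorylates YAP1 (ENSG00000150457.7; chromosome 13, 20973036 to 21061586), had 17.9 and 16.7 CPM in CRNN, 25.6 and 21.4 in GFP, and 42.4 and 20.4 in untreated libraries. For both genes the CRNN pair lay below the other 4 libraries.

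CRIM1, a transmembrane protein that binds BMPs (ENSG00000150938.5; chromosome 2, 36355778 to 36551135), had 89.9 and 87.2 CPM in CRNN, 169 and 130.5 in GFP, and 273 and 117 in untreated libraries. Its CRNN libraries were the lowest too. NUAK2, an AMPK-related kinase that acts on actomyosin and LATS (ENSG00000163545.7; chromosome 1, 205302063 to 205321745), had 9.28 and 9.12 CPM in CRNN, 17.4 and 8.61 in GFP, and 23.5 and 9.03 in untreated libraries. Here both first replicates of the controls were high, and the second replicates were at the CRNN level.

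The coactivators differed from each other. YAP1 (ENSG00000137693.9; chromosome 11, 102110447 to 102233424) had 90.4 and 84.8 CPM in CRNN, 87.5 and 108 in GFP, and 96.9 and 83.9 in untreated libraries. It was the 1 gene of the set whose highest library was not untreated replicate 1, and its groups overlapped. WWTR1 (ENSG00000018408.10; chromosome 3, 149517235 to 149736714) had 46.4 and 52.4 CPM in CRNN, 67.0 and 63.8 in GFP, and 126 and 43.3 in untreated libraries. The CRNN and GFP pairs of WWTR1 were apart, while untreated replicate 2 was the lowest of all.

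**Figure D2:**
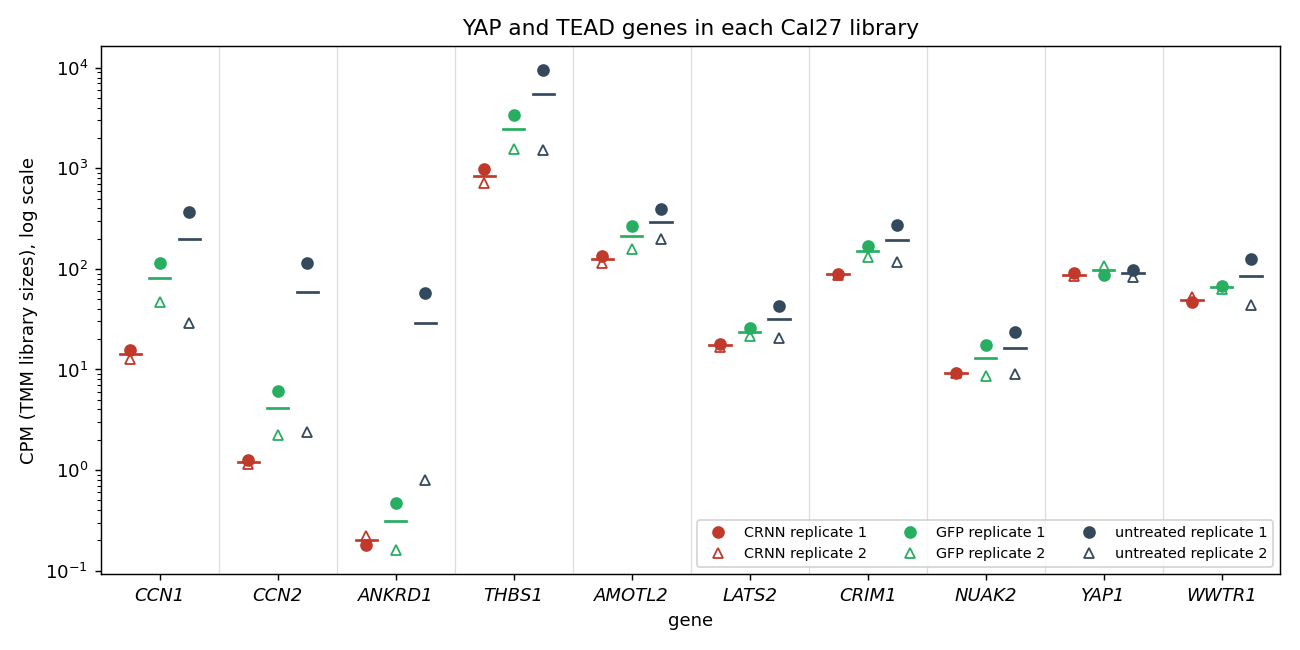
CPM (vertical axis, log scale) of each gene in the 6 libraries, with CRNN left of GFP and untreated cells; filled circles are replicate 1, open triangles replicate 2 and bars the mean of each pair. THBS1 spans 709 to 9519 CPM and ANKRD1 0.159 to 57.6 CPM, while YAP1 stays between 83.9 and 108 CPM.

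Levels of different genes were compared per length of exon (CPM per kb, with exons of GENCODE 44). Over the 5 libraries other than untreated replicate 1, THBS1 had 77.4 to 367 CPM per kb and AMOTL2 17.7 to 41.7. CRIM1 had 12.0 to 23.3, YAP1 13.3 to 17.1 and CCN1 3.41 to 30.9 CPM per kb, ranges that overlap. WWTR1 had 5.18 to 8.02 CPM per kb, LATS2 2.98 to 4.56 and NUAK2 2.54 to 5.12. CCN2 had 0.495 to 2.595 and ANKRD1 0.0890 to 0.447 CPM per kb, so these 2 indicators of the pathway were its least abundant members outside untreated replicate 1. There CCN2 and ANKRD1 had 49.1 and 32.2 CPM per kb, above YAP1 at 15.4 and WWTR1 at 15.1.

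Untreated replicate 1 was the highest library for 9 of the 10 genes, against 27.1% of the 16396 tested genes. It was more than 2-fold above every other library for 4 of them, against 3.49% of tested genes. These are the values that chose CCN1, CCN2, ANKRD1 and THBS1, and nothing is read from them. WWTR1 was 1.89 times its next highest library there, LATS2 1.65, CRIM1 1.61, AMOTL2 1.46 and NUAK2 1.35. The replicates of the GFP group differed the same way for most members, with 9 of 10 higher in replicate 1 on the log2 CPM scale (median difference 0.89), against 47.1% of the 11729 genes averaging 1 or more on that scale (median -0.049). In the CRNN pair 8 of 10 members were higher in replicate 1, against 45.6% of the same genes. The members' median difference was smaller there, at 0.095 on that scale, against -0.023.

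The comparison of CRNN with GFP asks what differs when the vector carries cornulin in place of GFP, and its fold changes do not use the untreated values that chose the set. Its errors and p-values do, since the spread is estimated over all 6 libraries. The fold change was below 0 for each of the 10 genes, with a median of -0.74 on the log2 scale, against -0.0017 over all tested genes, of which 50.1% were lower. Without GFP replicate 1 the median was -0.35, with 8 of 10 below 0, and without GFP replicate 2 it was -1.005, with 9 of 10. ANKRD1 passed the filter on low counts only with the help of the untreated libraries. With only the CRNN and GFP libraries it was not tested, and the other 9 genes were all below 0 with a median of -0.77. CCN1 was 5.69-fold lower (log2 fold change -2.51, SE 0.94), CCN2 3.47-fold (-1.80, SE 1.33) and THBS1 2.91-fold (-1.54, SE 0.73). AMOTL2 had -0.78 (SE 0.39), CRIM1 -0.76 (SE 0.39), ANKRD1 -0.72 (SE 2.15), NUAK2 -0.50 (SE 0.48), LATS2 -0.44 (SE 0.36), WWTR1 -0.40 (SE 0.44) and YAP1 -0.16 (SE 0.26). None of the 10 passed an adjusted p under 0.05 in edgeR (adjusted p = 0.999 for each), where 0.0183% of tested genes did.

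At an unadjusted p under 0.05 CCN1 alone of the 10 was lower, against 2.9% of all tested genes, and DESeq2 and limma-voom called none of the set after adjustment. With no filter on low counts CCN1 fell in CRNN (log2 fold change -2.47, edgeR adjusted p = 0.0414), where 34 of 33425 genes passed (0.102%). The 95% intervals of the log2 fold changes reached from -4.64 to -0.38 for CCN1, from -3.19 to 0.11 for THBS1 and from -0.74 to 0.43 for YAP1, so a moderate difference of YAP1 in either direction lies within the error. The members' median SD between replicates was 0.11 log2 CPM in CRNN, 0.63 in GFP and 1.03 in untreated cells, and the fit pools these. For 7 genes the 2 CRNN libraries were both below the 2 GFP libraries, against 18.7% of tested genes. For 6 genes (CCN1, CCN2, THBS1, AMOTL2, LATS2 and CRIM1) both CRNN libraries were below the 4 others, against 5.67%. The 4 others hold untreated replicate 1, whose levels chose 3 of these genes, and nothing is read from this count.

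**Figure D3:**
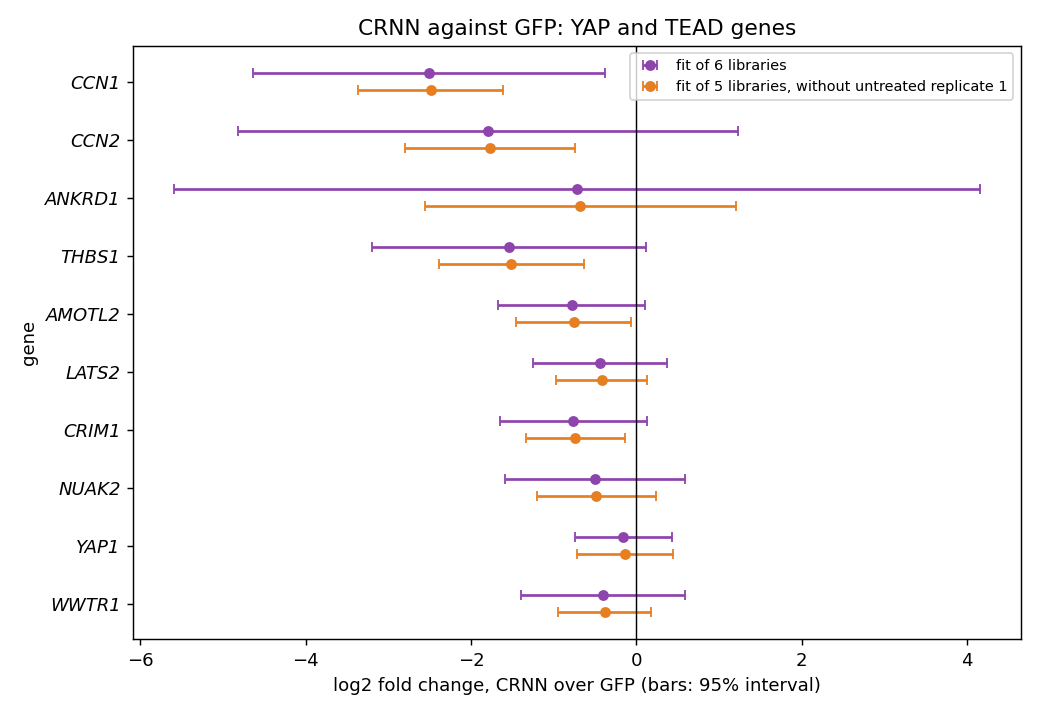
Log2 fold change of CRNN over GFP (horizontal axis) for each gene, with 95% intervals, from the fit of all 6 libraries and from the fit of 5 libraries without untreated replicate 1. Every point is below 0, from -2.51 for CCN1 to -0.14 for YAP1, and the intervals of CCN1, CCN2, THBS1, AMOTL2 and CRIM1 stay below 0 in the fit of 5 libraries.

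With untreated replicate 1 left out, the fold changes moved by at most a few hundredths and their errors shrank. CCN1 had -2.48 (SE 0.40, edgeR adjusted p = 0.0737), CCN2 -1.77 (SE 0.46, adjusted p = 0.434) and THBS1 -1.51 (SE 0.40, adjusted p = 0.434). CCN1, CCN2, THBS1, AMOTL2 and CRIM1 were lower at an unadjusted p under 0.05, which is 5 of 10 genes against 4.48% of 17663. After adjustment 0.0736% of genes passed, none of them in this set. The GFP libraries differed, and so did the values with either one left out. Without GFP replicate 1 the fit of the other 5 gave -1.72 for CCN1, -0.87 for CCN2, -0.86 for THBS1, -0.34 for AMOTL2 and -0.55 for CRIM1, and ANKRD1 and NUAK2 had 0.34 and 0.11. Without GFP replicate 2 it gave -2.99 for CCN1, -2.29 for CCN2, -1.97 for THBS1, -1.10 for AMOTL2 and -0.91 for CRIM1.

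The genes were chosen by high levels in untreated replicate 1. Other libraries, untreated replicate 2 among them, may have served as the reference for high. The fit of 5 libraries sets the transduced cells against untreated replicate 2. This lone library is assumed to vary like the transduced ones. CRNN over untreated replicate 2 was -1.03 for CCN1 (SE 0.45), -0.98 for CCN2 (SE 0.55), -0.84 for THBS1 (SE 0.46) and -0.67 for AMOTL2 (SE 0.37) in log2 units. CRIM1 had -0.40 (SE 0.32) and LATS2 -0.23 (SE 0.30), while NUAK2, YAP1 and WWTR1 had 0.030, 0.066 and 0.19, with errors of 0.40, 0.32 and 0.31. None passed (edgeR, adjusted p = 1 for each), where 0.0226% of genes did, and DESeq2 and limma-voom called none of the set either. At an unadjusted p under 0.05 CCN1 was lower, against 0.402% of genes. ANKRD1 passed the filter only through untreated replicate 2, where it is high, so it is given by its counts alone, 4 and 5 in CRNN and 20 in untreated replicate 2. With either GFP library also left out, CCN1 fell in CRNN (-1.03, edgeR adjusted p = 0.00830 without GFP replicate 1 and 0.0159 without GFP replicate 2), in fits where 128 genes (0.754%) and 93 genes (0.532%) passed.

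GFP over the same library went the other way for CCN1, CCN2, THBS1, AMOTL2, CRIM1 and LATS2, while NUAK2, YAP1 and WWTR1 were above 0 in both comparisons. CCN1 had 1.45 (SE 0.49), CCN2 0.79 (SE 0.55), THBS1 0.67 (SE 0.49), WWTR1 0.57 (SE 0.32) and NUAK2 0.51 (SE 0.40) in log2 units. ANKRD1 is again given by its counts alone, 9 and 2 in GFP and 20 in untreated replicate 2. No gene of the set and 0% of all genes passed (edgeR, adjusted p = 0.9996 for each member other than ANKRD1). At an unadjusted p under 0.05 CCN1 alone of the set was higher, against 2.55% of genes. DESeq2 called 8 genes in this comparison, none in the set. The 2 comparisons share untreated replicate 2, so their values are not independent. With ANKRD1 aside, GFP replicate 2 was below untreated replicate 2 for CCN2 (2.23 against 2.40 CPM), NUAK2 (8.61 against 9.03) and AMOTL2 (158 against 198). It was above for CCN1 (46.7 against 28.9 CPM), WWTR1, CRIM1, YAP1 and LATS2, and by little for THBS1 (1542 against 1517). Without GFP replicate 2 the lone GFP replicate 1 gave 1.95 for CCN1, 1.31 for CCN2 and 0.91 for NUAK2. The spread then came from the CRNN pair alone, so nothing is read from calls in that fit.

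Over the mean of both untreated libraries, CRNN had log2 fold changes of -7.13 for ANKRD1, -5.59 for CCN2, -3.83 for CCN1 and -2.71 for THBS1. AMOTL2 had -1.25, CRIM1 -1.14, LATS2 -0.86, NUAK2 -0.82, WWTR1 -0.78 and YAP1 -0.045. GFP over untreated cells had -6.42 for ANKRD1, -3.79 for CCN2, -1.32 for CCN1 and -1.17 for THBS1, and between -0.47 and 0.11 for the other 6. These comparisons share the untreated pair and hold the library that chose the set. Against untreated replicate 2 alone, with ANKRD1 left out, 3 CRNN values and all 9 GFP values were above 0. The direction of most GFP values thus turned, though GFP replicate 2 by itself was below untreated replicate 2 for CCN2, NUAK2 and AMOTL2.

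The rest of the pathway was read from lists of related genes. Of 23 Hippo kinases and adaptors, 19 had lower levels in CRNN than in GFP (median log2 fold change -0.27), and none passed in edgeR. In log2 CPM centred per gene, the list averaged -0.17 and -0.16 in CRNN and -0.12 in GFP replicate 1. Only GFP replicate 2 of the GFP pair stood apart from CRNN, at 0.18. DLG5, a scaffold of the MST and MARK kinases, had -0.58 (SE 0.24) and PTPN14, a phosphatase that binds YAP1, had -0.53 (SE 0.27). WWC2, a KIBRA relative, had -0.51 (SE 0.31), and AMOTL1, another angiomotin, had -0.42 (SE 0.28).

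Of 8 TEAD factors and VGLL cofactors, 7 were lower, with a median of -0.23 and none passing. VGLL2, a TEAD cofactor of muscle, had 3.58 and 2.89 CPM in CRNN against 13.7 and 4.86 in GFP (log2 fold change -1.53, SE 0.56). TEAD1 had 69.4 and 59.6 CPM in CRNN against 107 and 92.4 in GFP (-0.63, SE 0.31). TEAD3 and TEAD4 had -0.24 (SE 0.25) and -0.22 (SE 0.30).

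Among 21 further YAP and TEAD targets, 17 had values below 0 (median -0.36), and none passed. ARHGEF17 had 27.3 and 20.5 CPM in CRNN against 50.4 and 41.2 in GFP (log2 fold change -0.94, SE 0.32). DOCK5, a Rac exchange factor, had -0.93 (SE 0.31), ASAP1, an Arf GTPase-activating protein, -0.86 (SE 0.34) and AXL, a receptor tyrosine kinase, -0.79 (SE 0.46). The CRNN and GFP libraries of AXL overlapped, at 331 and 247 CPM against 711 and 290. In untreated replicate 1 the list stood 1.27 above its mean (log2 CPM centred per gene), and in the other libraries it was between -0.42 and 0.11. GFP replicate 1 was at 0.11, while GFP replicate 2 at -0.31 was close to the CRNN pair at -0.37 and -0.42. Genes of serum response factor and its MRTF partners, described below, stood higher in untreated replicate 1, at 1.46. Elsewhere they were between -0.69 and -0.11.

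Other matricellular genes were divided in CRNN against GFP. Of 15 listed, 8 had enough counts, and 4 were lower and 4 higher, with a median of -0.0055 and none passing. THBS2 had -0.91 (SE 0.55), CCN6 0.55 (SE 0.38), CCN3 0.53 (SE 0.59) and CCN5 -0.20 (SE 0.71). Of 11 receptors for CCN1, CCN2 or THBS1, 8 were tested, with 6 lower, a median of -0.11 and none passing. CD47, a receptor of thrombospondin 1, had 0.55 (SE 0.31), while LRP6 had -0.57 (SE 0.29), ITGB5 -0.69 (SE 0.40) and LRP1 -0.70 (SE 0.49). For ITGB5 the CRNN and GFP libraries overlapped, at 31.1 and 28.6 CPM against 69.0 and 27.2. So did those of LRP1, at 19.2 and 14.0 CPM against 18.0 and 36.3.

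Genes of serum response factor and its MRTF partners, which respond to actin dynamics and share CCN1 as a target, had 14 of 15 tested, 8 of them lower in CRNN (median -0.14), and none passed. TAGLN, an actin-binding protein of smooth muscle, had the largest difference of these, with 20.2 and 17.0 CPM in CRNN, 1.04 and 2.07 in GFP, and 124 and 0.720 in untreated libraries. Its log2 fold change over GFP was 3.62 (SE 1.58, edgeR adjusted p = 0.999), and it rose in the fit of 5 libraries (3.65, SE 0.36, edgeR adjusted p = 0.00358), where it also rose over untreated replicate 2 (4.68, SE 0.51, adjusted p = 0.0160). FLNA had -0.69 (SE 0.41), MRTFB -0.55 (SE 0.42) and MRTFA -0.44 (SE 0.38). Of the 3 relatives of ANKRD1 and NUAK2 none passed: ANKRD2 had -1.02 (SE 0.44) and ANKRD23 -0.77 (SE 0.65), while NUAK1 was at -5.1e-04 (SE 0.37), with no difference in either direction beyond its error.

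**Figure D4:**
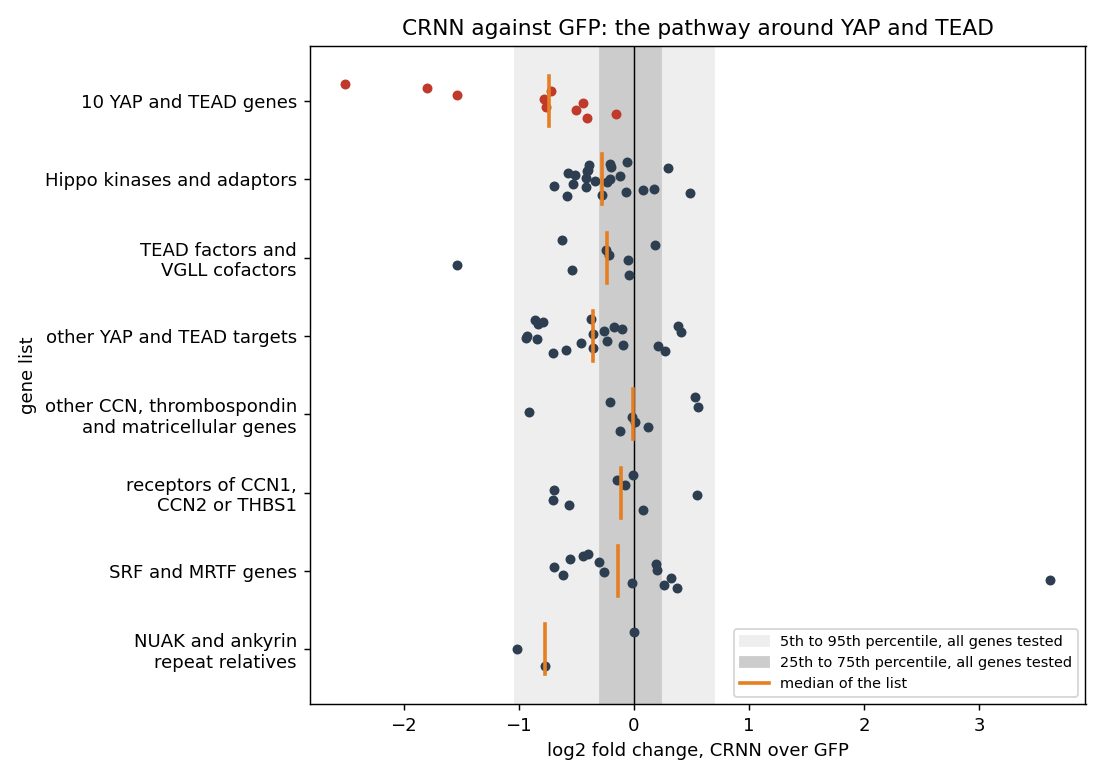
Log2 fold change of CRNN over GFP (horizontal axis) for the tested genes of each pathway list; points are genes, orange lines list medians, and grey bands the percentiles of all tested genes. The 10 YAP and TEAD genes have a median of -0.74, the other targets -0.36 and the other matricellular genes -0.0055, and TAGLN at 3.62 is the point on the far right.

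The genes with the most similar profile over the 6 libraries were sought among 11720 others, by the root mean square distance of centred log2 CPM from the mean of CCN1, CCN2, ANKRD1 and THBS1. SAMD4A, an RNA-binding repressor of translation, was nearest at 0.46, with 4.71 and 4.36 CPM in CRNN, 11.9 and 4.70 in GFP, and 97.6 and 4.68 in untreated libraries. LIF, a cytokine of the interleukin 6 family, was at 0.50, AKAP12, a scaffold of protein kinase A, at 0.52 and HBEGF, a ligand of EGFR, at 0.52. SEMA7A, F3, MYADM and JUN were at 0.53, 0.53, 0.59 and 0.60. All 8 were highest in untreated replicate 1 and second in GFP replicate 1, and 1 high library sets most of this distance.

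Around the coactivators the likeness was to other genes. For YAP1 the nearest were KRBOX4 (0.019), PDK1 (0.046), INPP4B (0.046) and PABPC4 (0.050), which varied as little as YAP1 did. For WWTR1 they were NR2F2 (0.095), PTPN21 (0.10), CTPS1 (0.11) and C6orf132 (0.11), with NR2F2 at 27.2 and 29.4 CPM in CRNN, 36.2 and 36.7 in GFP, and 69.6 and 28.6 in untreated libraries.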

How the data were processed

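The authors deposited raw counts, whole reads per versioned Ensembl identifier, with no normalization. Per the submitters' processing notes, STAR 2.6, HTSeq 0.6.1, FastQC 0.11.7, edgeR and bcl2fastq were used and hg19, GRCh37 and GRCh38 are named, without roles. Which annotation and strand setting HTSeq used is not given in the sources used here. Names and GRCh38 coordinates came from GENCODE 44 by identifier without version (51996 of 57820 matched), and all 10 genes matched.

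Genes were kept by filterByExpr (minimum count 10, minimum total 15), which left 16396. All 6 libraries were fitted with edgeR 4.0.16 (quasi-likelihood F test, TMM), and p-values received the Benjamini-Hochberg adjustment across every tested gene, threshold 0.05. SE is the size of the log2 fold change over the root of F. The fit without untreated replicate 1 tested 17663 genes. Procedures were tested on simulated counts. The genes, lists and tests were chosen with earlier results of these data known. Named genes are the 10, up to 4 per list with the smallest p in CRNN against GFP and any called, and the nearest profiles (8 for the 4 targets, 4 each for YAP1 and WWTR1). Alternatives were other scalings and filters, DESeq2 1.42.0, limma-voom 3.58.1, a fit of 2 groups, a replicate block, a GC content and length correction, and each library left out; robust edgeR was chosen after seeing the data. The 95% intervals include the spread between libraries, while the limit of 3 counts covers counting error only.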

Additional observations from a re-analysis of the deposited data

How the results depend on the processing

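None of the 10 genes passed in CRNN against GFP by edgeR in the main fit, and this held in every alternative except with no filter on low counts, where 1 (CCN1, log2 fold change -2.47, adjusted p = 0.0414) did. The number of all genes called was 3, and it was 34 with no filter, 22 with DESeq2, 13 with only the 2 groups compared, 1 with the GC content and length correction, 1 with that correction and the replicate block, and 0 to 15 with each library left out (0 without GFP replicate 1 or GFP replicate 2, 13 without untreated replicate 1, 15 without untreated replicate 2). The replicate block gave 4 genes and 0 members called in CRNN against GFP. The differences between replicates 1 and 2 correlated across 11729 genes at r = 0.26 for CRNN with GFP. The values were -0.071 for CRNN with untreated and 0.19 for GFP with untreated cells. Such weak correlations cannot decide whether the replicate numbers pair the libraries, and the main fit uses no pairing. The direction of CCN1, CCN2, THBS1, AMOTL2, LATS2, CRIM1 and WWTR1 was the same in all 18 alternatives. It turned for ANKRD1 and NUAK2 without GFP replicate 1 (ranges over the libraries left out -1.16 to 0.34 and -0.89 to 0.11) and for YAP1 without GFP replicate 2 (-0.29 to 0.026). ANKRD1 was not tested with 1 CPM in 2 libraries or with 2 groups. Against untreated replicate 2, CRNN called 4 genes, 1 with no filter, 13 with DESeq2 and 6 to 128 with a transduced library left out, and 0 to 1 members (CCN1 without either GFP library). GFP called 0 genes, 8 with DESeq2 and 8 to 1870 with a library left out, and 0 to 3 members. The fewer libraries then set the spread, so nothing is read from calls against untreated replicate 2 with a library left out. The cause of the other differences was not tested. With 2 libraries a group and 2 to 9 ANKRD1 counts in each transduced library, the 95% interval of its CRNN over GFP log2 fold change reached from -5.60 to 4.16.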
